A study of Mus musculus with 14 samples.

Results

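The genes described here are the 2 beta-adrenergic receptors Adrb1 and Adrb3 and 6 genes of the breakdown of stored fat, Pnpla2, Lipe, Mgll, Abhd5, G0s2 and Pde3b. They were listed by symbol, with earlier results of these data known, and found by their Ensembl identifiers. All 8 were among the 21853 genes of the table, and all 8 passed the filter on low values in both tissues. RNA-seq libraries had been made from the ovary and the uterus of C57BL/6J female mice 28 weeks old. The 4 OT mice had received AMSC-CM, the medium in which mesenchymal stem cells of the human amniotic membrane had grown, mixed from 3 amnion donors and concentrated, through the tail vein at 1 µL per g of body weight in 6 injections given 4 days apart. The 3 OC mice, of the same strain and age, had received normal saline. Mice of both groups had also been given PMSG and, 48 h later, hCG, each at 10 IU, to bring their estrous cycles into step. Each mouse label gave 1 ovary library and 1 uterus library, 14 libraries in 4 groups. The values were FPKM, fragments counted per kilobase of transcript and set against the fragments mapped in that library, which allow levels to be compared between genes. Their depth is unknown, and no number of reads stands behind a value here.

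Fat is stored in cells as triacylglycerol droplets, and its release is switched on by catecholamines acting through beta-adrenergic receptors, which raise cyclic AMP and activate protein kinase A. The breakdown then runs in order. Pnpla2 (adipose triglyceride lipase) removes the first fatty acid, Lipe (hormone-sensitive lipase) the next, and Mgll (monoglyceride lipase) the last. Abhd5 (CGI-58) is the protein that activates Pnpla2, and G0s2 is a small protein that inhibits it. Pde3b is a phosphodiesterase that breaks down cyclic AMP, and through it insulin restrains lipolysis in fat cells. In the mouse, Adrb3 is found mainly in white and brown fat, whereas Adrb1 is known above all from the heart. The lipases are present in many tissues, and cells that make steroids, such as those of the ovary, use Lipe to free cholesterol from its stored esters.

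In GRCm38, the build of the files (mm10), 3 of the genes lay on chromosome 7: Lipe at chr7:25379527-25398710 on the minus strand, Pde3b at chr7:114415281-114539251 and Pnpla2 at chr7:141455198-141460743, both on the plus strand. Adrb1 lay at chr19:56722199-56733113, Mgll at chr6:88724412-88828360 and Abhd5 at chr9:122351608-122381524, all on the plus strand. Adrb3 lay at chr8:27225776-27250616 and G0s2 at chr1:193272161-193273217, both on the minus strand. All 8 were annotated as protein-coding by GENCODE M21.

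The promoters below belong to the enzymes and the inhibitor whose values were higher in OT uteruses by the test given further on, and are shown so that the letters around their starts can be compared. They were taken from RefSeq on GRCm38.p6, each 300 bases long, mostly upstream of a start and reaching a little past it, read 5′ to 3′ on the strand of the gene. Of the 8 genes, 6 had an entry, with 8 promoters in all, and Adrb3 and Pde3b had none. Capitals mark matches on either strand to GGGCGG (the GC box), CACGTG (the E-box), TGACG (the core of the cyclic AMP response element), AGGTCA (the nuclear receptor half-site), CCAAT and TATAAA. The positions are chr7:141454938-141455237 (plus strand) for Pnpla2, chr7:25395938-25396237 and chr7:25390063-25390362 (minus strand) for the starts of Lipe, chr6:88724162-88724461 (plus strand) for the first start of Mgll and chr1:193273139-193273438 (minus strand) for G0s2.
Pnpla2: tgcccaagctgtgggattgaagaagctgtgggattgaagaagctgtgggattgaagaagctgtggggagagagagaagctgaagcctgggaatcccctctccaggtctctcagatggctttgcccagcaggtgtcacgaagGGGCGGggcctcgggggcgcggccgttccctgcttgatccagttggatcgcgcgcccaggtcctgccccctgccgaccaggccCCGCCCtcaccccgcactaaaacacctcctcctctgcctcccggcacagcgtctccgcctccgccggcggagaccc
Lipe, first start: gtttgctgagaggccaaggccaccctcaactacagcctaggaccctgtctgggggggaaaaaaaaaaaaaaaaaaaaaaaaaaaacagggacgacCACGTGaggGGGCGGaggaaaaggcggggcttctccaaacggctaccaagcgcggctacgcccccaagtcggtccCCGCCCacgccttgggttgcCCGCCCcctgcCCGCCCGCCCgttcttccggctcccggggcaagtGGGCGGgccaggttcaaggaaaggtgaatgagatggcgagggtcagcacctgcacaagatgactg
Lipe, second start: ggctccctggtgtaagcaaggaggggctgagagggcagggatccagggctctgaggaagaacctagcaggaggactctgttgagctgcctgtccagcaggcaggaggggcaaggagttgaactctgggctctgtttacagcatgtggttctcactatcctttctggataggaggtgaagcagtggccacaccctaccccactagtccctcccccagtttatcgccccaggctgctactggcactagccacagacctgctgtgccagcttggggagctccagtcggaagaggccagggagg
Mgll, first start: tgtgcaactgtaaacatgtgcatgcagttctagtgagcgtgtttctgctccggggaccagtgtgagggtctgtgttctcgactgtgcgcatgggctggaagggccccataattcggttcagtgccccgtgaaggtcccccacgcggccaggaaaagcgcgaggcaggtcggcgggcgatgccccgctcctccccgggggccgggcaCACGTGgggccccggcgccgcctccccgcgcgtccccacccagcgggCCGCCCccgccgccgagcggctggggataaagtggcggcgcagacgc
G0s2: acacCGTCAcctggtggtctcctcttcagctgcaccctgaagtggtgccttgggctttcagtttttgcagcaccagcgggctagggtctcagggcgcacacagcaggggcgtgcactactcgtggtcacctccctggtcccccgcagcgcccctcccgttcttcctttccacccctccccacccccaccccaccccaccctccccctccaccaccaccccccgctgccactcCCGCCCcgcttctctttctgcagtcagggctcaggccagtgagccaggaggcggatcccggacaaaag

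The GC box GGGCGG was held by 7 of the 8 promoters of these genes, against 35.7% of 32851 promoters of the same length. The first start of Lipe had 6 matches to it, Pnpla2 had 2, and the second start of Lipe had none. The E-box CACGTG, held by 7.15% of all promoters, stood before the first start of Lipe and the first start of Mgll. The core TGACG was held by 20.8% of all promoters and by those of Adrb1, Abhd5, G0s2 and the second start of Mgll. The full palindrome TGACGTCA, held by 1.79% of all promoters, was in none of the 8. AGGTCA was found in Abhd5 alone of the 8, against 16.3% of all promoters, and 2 copies of it as a direct repeat with 1 base between, held by 0.0396%, were in none. CCAAT was found in Adrb1 alone, against 37.4% of all promoters, and TATAAA in none, against 13.6%. TGACG lies within TGACGTCA, so these shares overlap. The GC content of the 8 promoters ran from 60.0% to 72.3%, and the median over all promoters was 52.7%. No letter pattern of those searched was shared by all 8 promoters, and a match is a description of letters only.

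In OC mice the lipolysis genes were moderately expressed in both tissues and the receptors were low. Pnpla2 had the highest level of the 8 genes in OC ovaries, with 29.4, 26.2 and 32.9 FPKM, and in OC uteruses, with 26.5, 36.3 and 39.4 FPKM. Its mean stood above 84.5% of the genes with a value over 0 in OC ovaries and above 86.7% in OC uteruses. Lipe came next in both tissues, with a mean of 20.4 ± 1.79 FPKM (SD, n = 3) in OC ovaries and 15.9 ± 1.93 FPKM (SD, n = 3) in OC uteruses, and its range did not reach that of Pnpla2 in either. Below Lipe in OC ovaries followed Mgll at 16.6, G0s2 at 15, Abhd5 at 12.6 and Pde3b at 12.1 FPKM. Each of these overlapped in range with its neighbour in that order, and so did Lipe with Mgll. In OC uteruses the order below Lipe was Mgll at 14.1, Pde3b at 11.8, G0s2 at 10.5 and Abhd5 at 10.4 FPKM, where Pde3b lay above G0s2 in each of the 3 libraries and the other neighbours overlapped. Adrb3 had a mean of 2.08 ± 0.0872 FPKM (SD, n = 3) in OC ovaries and 1.39 ± 0.606 FPKM (SD, n = 3) in OC uteruses. Adrb1 was the lowest of the 8, with 0.715 ± 0.165 and 0.751 ± 0.285 FPKM (SD, n = 3 each), and its range overlapped with that of Adrb3 in OC uteruses only.

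**Figure D1:**
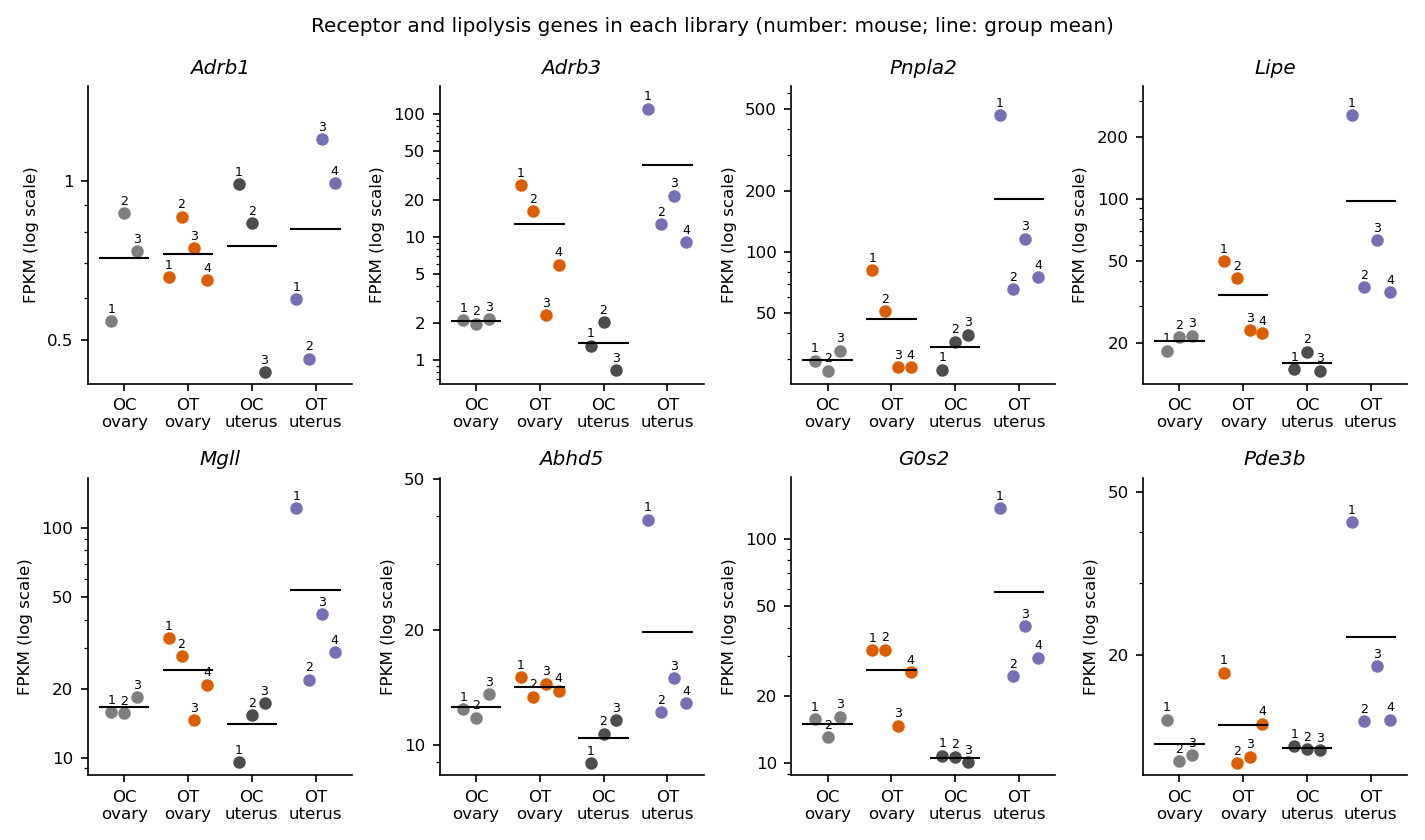
Level of each of the 8 genes in the 14 libraries, in FPKM on a log axis, with 1 point per library, its mouse number above it and a line at the group mean. In the uterus all OT points lie above all OC points for every gene but Adrb1, with OT1 highest for these 7 genes (110 FPKM for Adrb3 and 469 FPKM for Pnpla2).

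The first comparison asked how the receptors differed between treated and control mice. Adrb3 was higher in OT mice in both tissues, whereas Adrb1 did not pass the test in either. In the ovary, Adrb3 stood at 2.11, 1.98 and 2.14 FPKM in mice OC1 to OC3 and at 26.2, 16.3, 2.31 and 5.95 FPKM in mice OT1 to OT4. All 4 OT ovaries lay above the 3 OC ovaries, but OT3 by a small margin. The difference of the means of log2(FPKM + 0.1) was 2.03 with a standard error of 0.70 (limma, unadjusted p = 0.019 and Benjamini-Hochberg adjusted p = 0.997), and the ratio of the mean FPKM was 6.1. Without OT1 the log2 difference was 1.51 and the ratio of the means 3.94. Without the OT2 ovary the log2 difference was 1.74 and no longer passed (unadjusted p = 0.0504 by limma). In the uterus, Adrb3 stood at 1.31, 2.03 and 0.823 FPKM in OC mice and at 110, 12.7, 21.6 and 9.12 FPKM in OT mice. The groups were far apart, since the lowest OT uterus was over 4 times the highest OC uterus. The log2 difference was 4.04 with a standard error of 0.79 (unadjusted p = 8.65e-04 and adjusted p = 0.357 by limma), and the ratio of the means was 27.7. Without the OT1 uterus the log2 difference was 3.29 and the ratio of the means 10.4.

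Adrb1, the other receptor of the pair, stayed low in all 14 libraries. Its values were 0.541, 0.87 and 0.736 FPKM in OC ovaries and 0.656, 0.856, 0.745 and 0.648 FPKM in OT ovaries. In the uterus they were 0.987, 0.832 and 0.434 FPKM in OC mice and 0.597, 0.46, 1.2 and 0.992 FPKM in OT mice. The groups overlapped in both tissues. The log2 difference was 0.03 (standard error 0.30, adjusted p = 0.999 by limma) in the ovary and 0.08 (standard error 0.46, adjusted p = 0.955 by limma) in the uterus, and its sign in the uterus turned under quantile normalization (-0.05). Without OT1 these log2 differences were 0.07 and 0.19. The ratio of Adrb3 to Adrb1 within a library, a pair chosen after the values were seen and therefore not tested, ran from 1.32 to 2.44 in OC uteruses and from 9.19 to 185 in OT uteruses.

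The genes that carry out lipolysis were then compared in the uterus, where the differences were larger. Pnpla2, which starts the breakdown, stood at 26.5, 36.3 and 39.4 FPKM in OC1 to OC3 and at 469, 65.8, 116 and 75.2 FPKM in OT1 to OT4. All 4 OT uteruses were above all OC uteruses, with OT1 far above the other OT mice. Pnpla2 differed by 1.93 on the log2 scale with a standard error of 0.62 (unadjusted p = 0.0147 and adjusted p = 0.55 by limma), and it was 1.30 without OT1.

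Lipe, which acts on the diacylglycerol that Pnpla2 leaves, was likewise highest in OT1 and next in OT3. It stood at 14.9, 18.1 and 14.6 FPKM in OC uteruses and at 256, 37.1, 62.9 and 35.2 FPKM in OT uteruses, and no values overlapped. Its log2 difference was 2.09 with a standard error of 0.63 (unadjusted p = 0.0106 and adjusted p = 0.539 by limma), and 1.46 without OT1.

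Mgll, which completes the sequence, stood at 9.55, 15.3 and 17.3 FPKM in OC uteruses and at 122, 21.9, 42.2 and 28.9 FPKM in OT uteruses. The groups did not overlap, and the OT2 and OC3 uteruses lay nearest to each other. For Mgll the log2 difference was 1.63 with a standard error of 0.54 (unadjusted p = 0.0169 and adjusted p = 0.55 by limma). It was 1.13 without OT1 and 1.38 without OC1, where it no longer passed (unadjusted p = 0.0635 by limma).

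The partners of Pnpla2 differed from each other in size. G0s2, the inhibitor, stood at 10.8, 10.7 and 10.1 FPKM in OC uteruses and at 137, 24.4, 40.7 and 29.5 FPKM in OT uteruses. The OC values lay close together and every OT value was over 2 times the highest of them. For G0s2 the log2 difference was 2.08 with a standard error of 0.53 (unadjusted p = 0.00434 and adjusted p = 0.485 by limma), and 1.54 without OT1. Abhd5, the activator, stood at 8.97, 10.7 and 11.6 FPKM in OC uteruses and at 39.1, 12.2, 15 and 12.9 FPKM in OT uteruses. The groups did not overlap, but only OT1 was well above the others. The log2 difference of 0.74 with a standard error of 0.39 did not pass (unadjusted p = 0.0916 and adjusted p = 0.623 by limma), and it was 0.36 without OT1.

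Pde3b, which lowers cyclic AMP, had nearly equal values of 12, 11.8 and 11.7 FPKM in the 3 OC uteruses and 42.3, 13.8, 18.8 and 13.9 FPKM in the OT uteruses. All 4 OT values were above the OC values, again with OT1 highest. The log2 difference of 0.73 with a standard error of 0.37 did not pass (unadjusted p = 0.082 and adjusted p = 0.616 by limma), and it was 0.37 without OT1.

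In the uterus 5 of the 8 genes (Adrb3, G0s2, Lipe, Mgll and Pnpla2) thus passed the cutoffs of the study, which ask for an absolute log2 difference of 1 or more together with an unadjusted p no higher than 0.05, and all 5 were higher in OT mice. Of all 14151 genes tested in the uterus, 2.23% passed as higher. The median log2 difference was 1.78 over the 8 genes and 0.01 over all tested genes. For 7 of the 8 genes every OT uterus lay above every OC uterus, which held for 6.46% of the tested genes. The exact two-sided permutation test of the mean FPKM gave p = 0.0571 for each of these 7, the smallest p that 3 against 4 libraries allow, so the exact test could not pass 0.05 here. Across all genes of the uterus, limma gave an adjusted p under 0.05 for 0 genes and an unadjusted p under 0.05 for 1160. In a fit of all 14 libraries together limma gave an adjusted p under 0.05 for 46 genes of the uterus comparison, none of them among the 8, where the smallest adjusted p was 0.0672 for Adrb3. Without OT1 the 5 genes still passed the cutoffs, and the smallest adjusted p among the 8 was 0.0812 by limma.

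The same genes were next compared in the ovary, where only Adrb3 passed. Lipe stood at 18.3, 21.2 and 21.6 FPKM in OC ovaries and at 50, 41.3, 23 and 22.3 FPKM in OT ovaries. All OT values were above the OC values, OT1 and OT2 clearly and OT3 and OT4 barely. Its log2 difference was 0.66 with a standard error of 0.28 (unadjusted p = 0.0431 and adjusted p = 0.997 by limma), below the size the cutoffs ask for, and 0.44 without OT1. G0s2 stood at 15.7, 13.1 and 16.1 FPKM in OC ovaries and at 31.9, 32, 14.7 and 25.4 FPKM in OT ovaries. The OT3 ovary lay among the OC ovaries and the other 3 lay above them. Its log2 difference was 0.73 with a standard error of 0.25 (unadjusted p = 0.0181 and adjusted p = 0.997 by limma), again below the size asked for, and 0.61 without OT1.

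Pnpla2 stood at 29.4, 26.2 and 32.9 FPKM in OC ovaries and at 81.4, 51.2, 27.2 and 27.3 FPKM in OT ovaries. OT1 and OT2 were above the OC values and OT3 and OT4 were within them. The log2 difference was 0.51 with a standard error of 0.36 (unadjusted p = 0.185 by limma), and 0.20 without OT1. Mgll stood at 15.8, 15.6 and 18.4 FPKM in OC ovaries and at 33.2, 27.7, 14.6 and 20.8 FPKM in OT ovaries. OT3 was below the OC values and the other 3 were above them. The log2 difference was 0.47 with a standard error of 0.25 (unadjusted p = 0.0888 by limma), and 0.30 without OT1.

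The 2 remaining genes had small log2 differences in the ovary, where Pde3b varied more between OT mice than Abhd5 did. Abhd5 stood at 12.4, 11.8 and 13.6 FPKM in OC ovaries and at 15.1, 13.4, 14.5 and 13.9 FPKM in OT ovaries, with a log2 difference of 0.17 (standard error 0.08, unadjusted p = 0.0698 by limma), or 0.14 without OT1. Pde3b stood at 13.9, 11 and 11.4 FPKM in OC ovaries and at 18.1, 10.9, 11.3 and 13.6 FPKM in OT ovaries, with a log2 difference of 0.13 (standard error 0.18, unadjusted p = 0.488 by limma) that turned to -0.02 without OT1. The groups overlapped for both.

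In the ovary 1 of the 8 genes thus passed the cutoffs, where 0.368% of the 14415 tested genes passed as higher. The median log2 difference was 0.49 over the 8 genes and -0.01 over all tested genes. Every OT ovary lay above every OC ovary for 2 of the 8 genes, Adrb3 and Lipe, which held for 2.78% of the tested genes. Both had p = 0.0571 in the exact two-sided permutation test, and the exact p of the other 6 ran from 0.114 for Abhd5 to 0.971 for Adrb1. Limma gave an adjusted p under 0.05 for 0 of all ovary genes and an unadjusted p under 0.05 for 650, and in the fit of all 14 libraries these counts were 0 and 211.

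**Figure D2:**
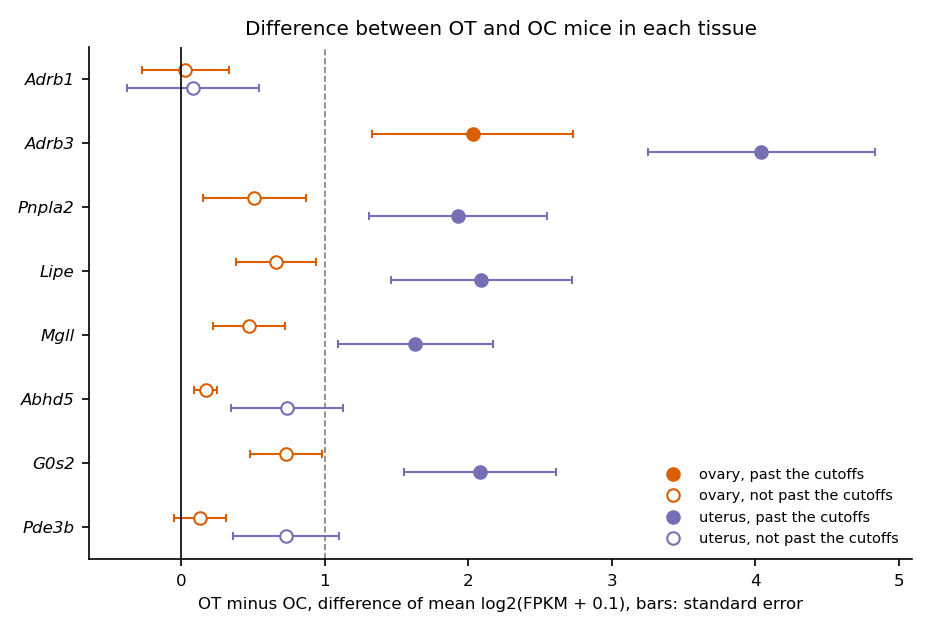
Difference between OT and OC mice in the mean of log2(FPKM + 0.1) for each gene, with its standard error as a bar, in the ovary (orange) and the uterus (purple). Filled points passed the cutoffs of the study, which was the case for Adrb3 alone in the ovary and for 5 genes in the uterus.

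The design also allowed the difference between OT and OC to be compared between the tissues. It was larger in the uterus for all 8 genes, by a median of 1.25 on the log2 scale. Of all 14557 tested genes, 7583 had a larger difference in the uterus, and the median was 0.02. None of the 8 passed the cutoffs in the fit that treated the 14 libraries as separate, where 1.28% of all tested genes passed as larger in the uterus. There the difference of the differences was 2.01 for Adrb3, 1.44 for Lipe, 1.41 for Pnpla2, 1.34 for G0s2 and 1.16 for Mgll, with an unadjusted p from 0.057 to 0.111 by limma. Since each mouse label gave both an ovary and a uterus, the mouse was also used as a block, and the same sizes then passed for all 5 of these genes, against 1.79% of all tested genes. With the block, the unadjusted p by limma was 0.0276 for Adrb3, 0.0193 for Lipe, 0.0128 for Pnpla2, 0.0324 for G0s2 and 0.0435 for Mgll, and the adjusted p was 0.807 for each. Abhd5 (0.57), Pde3b (0.60) and Adrb1 (0.05) passed in neither fit.

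Uterus and ovary were also compared within each group. In OC mice none of the 8 passed as different between uterus and ovary at an absolute log2 difference of at least 1 and an adjusted p under 0.05 by limma, where 18.3% of all tested genes did. With only 8 genes, 0 of 8 is not read as different from that share. The log2 differences of uterus minus ovary ran from -0.63 for Adrb3 (standard error 0.89, adjusted p = 0.612 by limma) to 0.19 for Pnpla2 (standard error 0.60, adjusted p = 0.828 by limma). In OT mice Pnpla2 was higher in the uterus than in the ovary, with a log2 difference of 1.61 (standard error 0.52, adjusted p = 0.0247 by limma), and it did not pass without OT3 (1.45). It was the only call among the 8, where 9.28% of all genes were higher in the OT uterus. With the mouse as a block, Lipe passed too, with a log2 difference of 1.08 (standard error 0.33, adjusted p = 0.0297 by limma), and Pnpla2 had an adjusted p of 0.00285. Adrb3 had a log2 difference of 1.37 that did not pass in either fit (adjusted p = 0.171, and 0.0556 with the block, by limma).

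The order of the OT mice was not the same in the tissues. In the ovary OT1 was the highest OT mouse for Adrb3 (12.6 times the OC mean), Pnpla2 (2.76), Lipe (2.45), Mgll (2), Abhd5 (1.2) and Pde3b (1.49), while for G0s2 OT1 and OT2 were nearly equal (2.13 and 2.14). OT3 was the lowest OT mouse in the ovary for Adrb3, at 1.11 times the OC mean, and for Pnpla2, Mgll and G0s2, at 0.924, 0.879 and 0.984 times. In the uterus OT1 was again the highest for every gene but Adrb1, from 3.57 times the OC mean for Pde3b to 79.6 times for Adrb3. OT3 came second there for these 7 genes, at 15.6 times the OC mean for Adrb3, 3.96 for Lipe and 3.41 for Pnpla2. The OT3 mouse thus had the lowest ovary and the second highest uterus for Adrb3, Pnpla2, Mgll and G0s2.

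The levels of the genes relative to each other were read from ratios of FPKM within each library, which do not depend on how the library was scaled. Each library holds all cells of the organ, so a ratio is not the balance within any cell type. The part of the mix of cells in these ratios was not tested. The pairs were chosen after the values had been seen, so they are described without a test. In the uterus the level of Abhd5 relative to Pnpla2, the lipase it activates, was 0.295 to 0.339 in OC mice and 0.0833 to 0.186 in OT mice, with no overlap. The level of G0s2 relative to Pnpla2 was 0.255 to 0.409 in OC uteruses and 0.291 to 0.393 in OT uteruses, so these overlapped. Lipe relative to Pnpla2 was 0.37 to 0.564 in OC uteruses and 0.469 to 0.564 in OT uteruses. Pde3b relative to Lipe was 0.654 to 0.805 in OC uteruses and 0.165 to 0.394 in OT uteruses, again with no overlap. In the ovary all of these ratios overlapped between the groups. Abhd5 relative to Pnpla2 was 0.414 to 0.451 in OC ovaries, and in the ovaries of OT1 to OT4 it was 0.186, 0.262, 0.533 and 0.508.

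**Figure D3:**
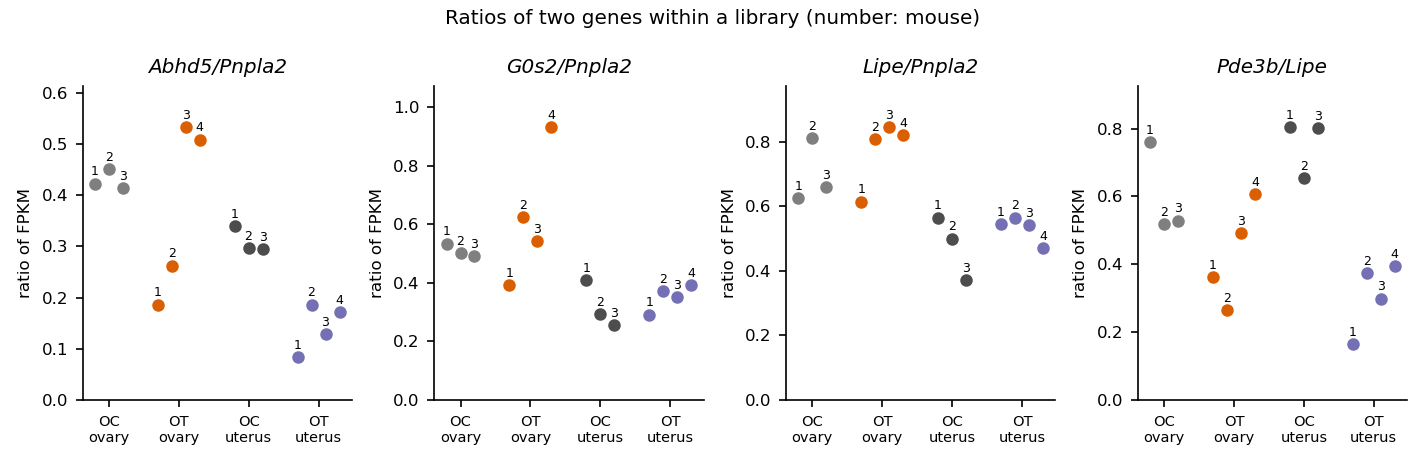
Ratio of the FPKM of a pair of genes within each library, with 1 point per library and its mouse number above it. In the uterus the OT mice lie below the OC mice for Abhd5/Pnpla2 (0.0833 to 0.186 against 0.295 to 0.339) and for Pde3b/Lipe, and overlap with them for G0s2/Pnpla2 and Lipe/Pnpla2.

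The levels of 7 of the genes moved together over the libraries. With each library expressed as a deviation from the mean of its tissue, Pearson's r over the 14 libraries ran from 0.77 (Adrb3 with Abhd5) to 0.98 (Pnpla2 with Lipe and with Mgll) among all genes but Adrb1. For Adrb1 with the others it ran from -0.18 to 0.05. These values include the difference between OC and OT, share their libraries, and are given as a description. They also include the OT1 uterus, the highest OT uterus for each of the 7 genes, and r without it was not computed. Among the 13645 genes compared in this way, those most like each gene were named. Irs3 (0.975), Lgals12 (0.971) and Pnpla3 (0.971) were most like Adrb3. Sik2 (0.985), Ghr (0.984) and Cebpa (0.982) were most like Pnpla2, and Ghr (0.987), Nabp1 (0.985) and Adhfe1 (0.981) were most like Lipe. For Mgll they were Mmd (0.983), Cebpa (0.979) and Gpd1 (0.974), and for G0s2 Acsl1 (0.983), Gpt (0.98) and Ghr (0.977). For Abhd5 they were Ppm1m (0.982), Mlxipl (0.975) and Ppp2r5a (0.97), and for Pde3b Hipk2 (0.961), Fah (0.961) and Miga2 (0.955). For Adrb1 the nearest were Nudt3 (0.884), Ndor1 (0.831) and Fam129b (0.825).

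Of 56 other genes that control lipolysis, listed by role, 54 were tested. Of all 14151 genes tested in the uterus, 2.23% passed as higher at the same cutoffs and 94 genes as lower. Of the 54, 12 were higher in OT uteruses and 0 were lower, and the median log2 difference was 0.16. The calls lay mostly in a group of genes of the fat droplet, of the transport of fatty acids and glycerol, and of other lipid enzymes. Abhd4, Abhd6, Ptgs1 and Ptgs2 were also in this group, where 7 of 13 passed. These were Plin1 (log2 difference 4.27), the perilipin that covers the droplet and holds Abhd5, Cidec (4.19), a droplet protein, Fabp4 (3.98), a fatty acid carrier, Aqp7 (3.62), a glycerol channel, Pnpla3 (4.47), a relative of Pnpla2, and the carboxylesterases Ces1d (2.22) and Ces1f (4.81). Among 10 other receptors, 4 passed. They were Adora1 (2.25), the adenosine receptor, Hcar1 (1.91) and Hcar2 (2.29), the receptors for lactate and hydroxybutyrate, and Tshr (1.37), the receptor for thyrotropin. Among 31 genes of the signal from receptor to kinase and of insulin action, 1 passed, Prkar2b (1.99), a regulatory subunit of protein kinase A. For these, 1 of 31 is near the share over all tested genes. In the ovary 3 of the 54 genes were higher in OT mice, Aqp7 (1.76), Cidec (1.65) and Fabp4 (1.62), 0 were lower, and the median was 0.01. Of all genes tested there, 0.368% passed as higher. Of the 56 genes, 4 (Plin1, Cidec, Cidea and Fabp4) also served as fat cell markers, and without these 9 of 50 passed in the uterus and 1 of 50 in the ovary. Without the OT1 mouse, 11 of 53 of the listed genes passed in the uterus and 2 of 54 in the ovary. Over all genes, 243 of 14105 in the uterus and 39 of 14425 in the ovary then passed as higher.

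**Figure D4:**
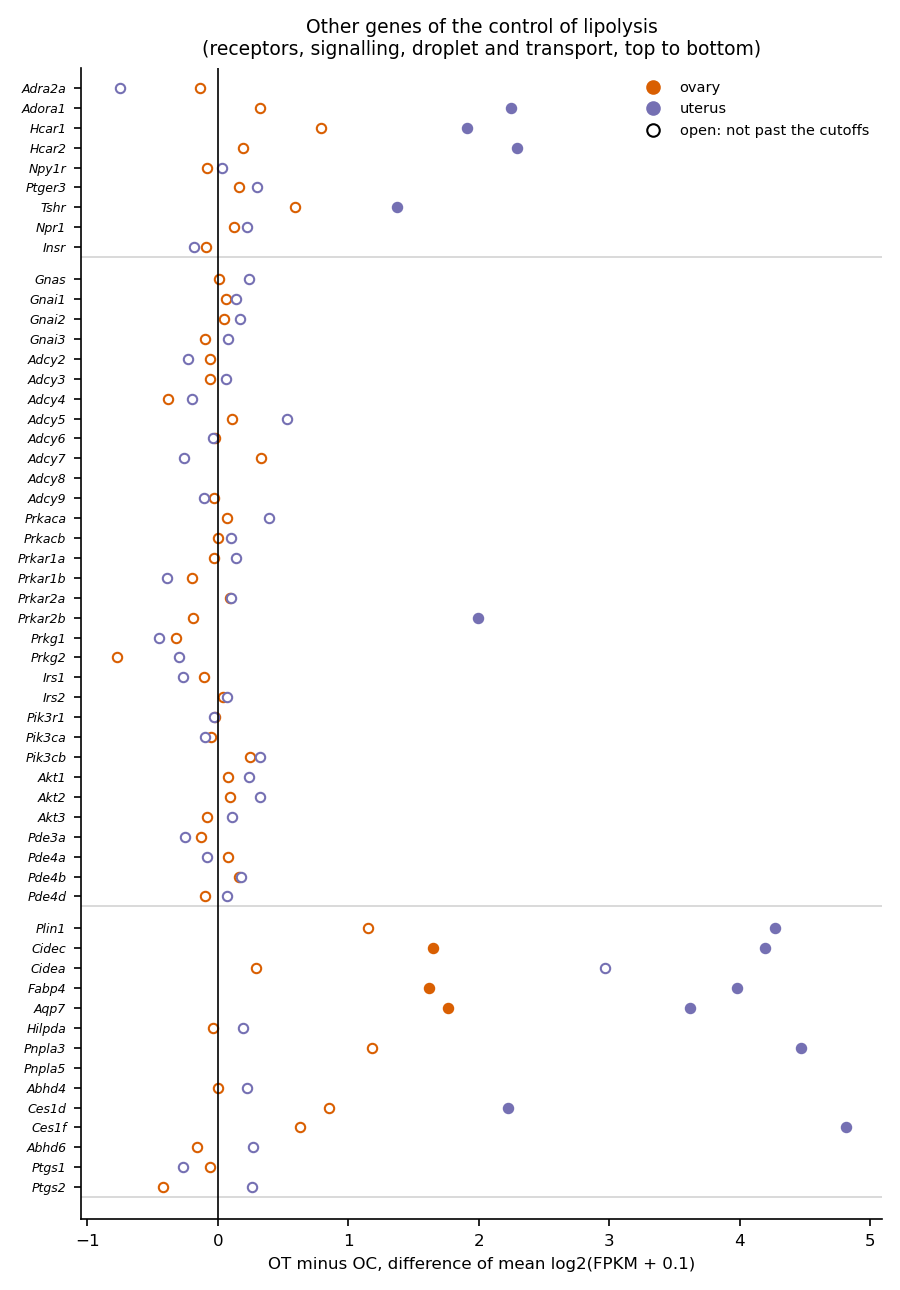
Difference between OT and OC mice in the mean of log2(FPKM + 0.1) for other genes that control lipolysis, in the ovary (orange) and the uterus (purple), with filled points for genes past the cutoffs. The filled points of the uterus lie mostly in the droplet and transport group at the bottom (7 of 13), which also holds other lipid enzymes. A further 4 lie among the receptors at the top and 1 among the signalling genes. Of all genes tested in the uterus, 2.23% passed as higher.

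Markers of cell types were summed in each library, since FPKM of a whole organ hold all of its cells. The ovary markers summed to 3447 to 4471 FPKM in the 7 ovaries and to 6.75 to 13.2 FPKM in the 7 uteruses. The uterus marker Hoxa10 stood at 0.572 to 53.4 FPKM in the ovaries, so the ovary libraries were not free of it. In the uterus Hoxa10 stood at 214 to 236 FPKM in OC mice and at 138 to 186 FPKM in OT mice, and Hoxa11 at 64.4 to 73.2 and at 41.7 to 60.1 FPKM. Every OT uterus thus lay below every OC uterus for both, with log2 differences of -0.46 and -0.45 (unadjusted p = 0.0121 and 0.023 by limma) that were under the size the cutoffs ask for. The share of all tested genes separated in this direction was not counted. The 6 uterus markers summed to 1176 to 1330 FPKM in OC uteruses and to 929 to 1593 FPKM in OT uteruses, with OT1 lowest, and 0 of 6 passed the cutoffs. Myh11 had the highest mean of the 6, at 706 FPKM in OC and 858 FPKM in OT uteruses. It was the only 1 of the 6 with a positive log2 difference (0.24). Those of Esr1, Pgr and Foxa2 were -0.35, -0.31 and -0.64, with an unadjusted p of 0.153, 0.311 and 0.352 by limma. The 15 white adipocyte markers summed to 111, 342 and 321 FPKM in the uteruses of OC1 to OC3 and to 12827, 1443, 2676 and 1499 FPKM in those of OT1 to OT4, and 15 of 15 were higher in OT uteruses by limma at the same cutoffs. In the ovary they summed to 300, 266 and 398 FPKM in OC mice and to 2087, 1513, 336 and 562 FPKM in OT mice, and 8 of 15 were higher. Of all tested genes, 2.23% passed as higher in the uterus and 0.368% in the ovary. Without OT1, 14 of the 15 markers were higher in the uterus and 4 of 15 in the ovary. The OT mice stood in the same order as for Adrb3 in the ovary, and in the uterus OT1 and OT3 were highest for both. None of the 15 was a member of the 8 genes. More fat cells in a sample and more RNA of these genes per fat cell cannot be told apart in such libraries, and the part of the fat cell markers in the differences of the 8 genes was not tested.

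The level of Adrb3 relative to Adipoq, the adiponectin gene of fat cells, was 0.0288 to 0.156 in OC uteruses and 0.0687 to 0.142 in OT uteruses, so the groups overlapped. In the ovary it was 0.0835 to 0.111 in OC mice and 0.103 to 0.163 in OT mice. Lipe relative to Adipoq was 0.509 to 1.78 in OC uteruses and 0.25 to 0.329 in OT uteruses. Pnpla2 relative to Adipoq was 1.35 to 3.16 and 0.461 to 0.604 there, with no overlap for either gene. In the ovary Pnpla2 relative to Adipoq was 1.28 to 1.46 in OC mice and 0.393 to 1.21 in OT mice, also with no overlap. Lipe relative to Adipoq overlapped in the ovary, at 0.844 to 1.19 in OC mice and 0.312 to 1.02 in OT mice. The log2 difference of Adipoq itself was 3.65 in the uterus and 1.70 in the ovary, beside 4.04 and 2.03 for Adrb3. These ratios too were chosen after the values were seen and were not tested.

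Other markers also moved in the OT uteruses. The brown adipocyte markers summed to 725 FPKM in the OT1 uterus and to 17.3 to 39.9 FPKM in those of the other OT mice, against 35.7 to 47.6 FPKM in OC uteruses. Most of the OC sum was Dio2, a deiodinase, at 28.6 to 39.5 FPKM, which was lower in OT uteruses at 11.3 to 30.4 FPKM (log2 difference -1.17, unadjusted p = 0.00779 by limma) and was the only call among the 7 brown adipocyte markers. Ucp1, which defines brown fat, was at 210 FPKM in the OT1 uterus and at 0.112 FPKM in that of OT3, and was listed at 0 in the other 12 libraries. Stratified epithelium markers summed to 1.63 to 11.4 FPKM in OC uteruses and to 96.7, 36.4, 693 and 342 FPKM in those of OT1 to OT4, so that OT3 and not OT1 was highest. Of these, 5 of 7 were higher in OT uteruses, against 2.23% of all tested genes. Krt5 stood at 0.357 to 2.81 FPKM in OC and at 11.7 to 299 FPKM in OT uteruses. Urothelium markers summed to 19 to 23.4 FPKM in OC uteruses and to 217, 82.1, 17.5 and 13 FPKM in OT1 to OT4. Of the 5 markers, 0 passed the cutoffs in the uterus. The sum was not particular to the uterus, since it was 39 to 40.2 FPKM in OC ovaries and 38.5 to 58.9 FPKM in OT ovaries. Upk2, a uroplakin of the bladder lining, was at 16.2 FPKM in the OT1 uterus and was listed at 0 in those of the other OT mice. It reached at most 0.149 FPKM in OC uteruses and was listed at 0 in every ovary. Macrophage markers summed to 67.9 to 76.2 FPKM in OC uteruses and to 131, 186, 78.1 and 82.9 FPKM in those of OT1 to OT4, all above the OC values. In the ovary they summed to 42.8 to 55.4 FPKM in OC mice and to 54.9 to 78.9 FPKM in OT mice, with OT3 lowest and within the OC range. None of the 4 macrophage markers passed the cutoffs in either tissue, with log2 differences of 0.50 to 0.87 in the uterus and 0.20 to 0.64 in the ovary. An unadjusted p under 0.05 by limma was found for Adgre1 in the uterus (0.0153) and for Csf1r (0.011) and Cd68 (0.0107) in the ovary. The part of these cell types in the results was not tested.

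**Figure D5:**
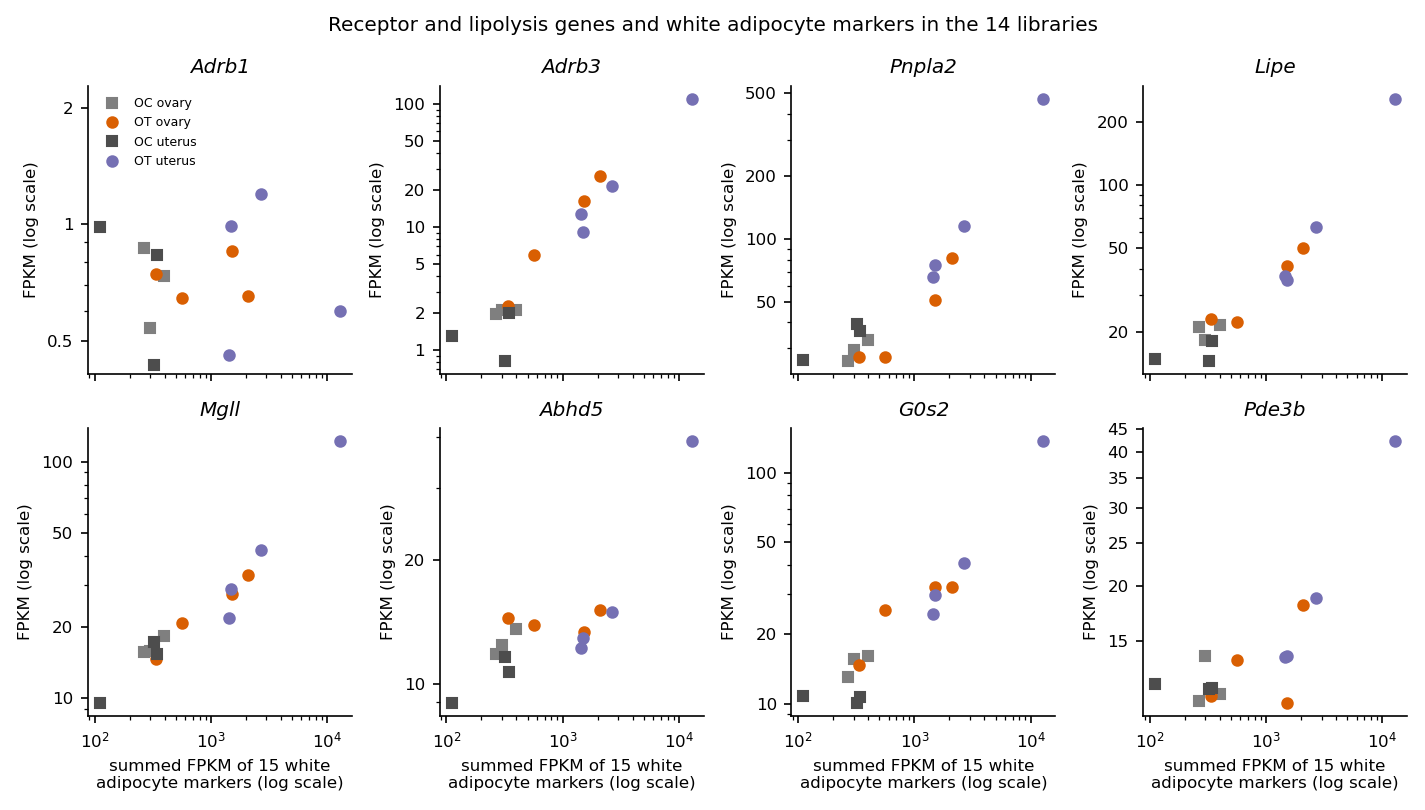
Level of each of the 8 genes against the summed FPKM of 15 white adipocyte markers in the same library, both on log axes, with squares for OC and circles for OT mice. Adrb3, Pnpla2, Lipe, Mgll and G0s2 are high where the marker sum is high, with the OT1 uterus (12827 FPKM of markers) at the far right, and Adrb1 shows no such order.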

How the data were processed

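RNA-seq of the ovary and uterus of 3 OC and 4 OT mice was used, 14 libraries grouped by their labels. The deposited values were FPKM per gene. The authors made stranded, rRNA-depleted libraries, used Skewer 0.2.2 for trimming and STAR 2.5 for mapping to mm10, and estimated FPKM with Cufflinks 2.2.1. The reads were not used here, so depth is unknown and the authors' Cuffdiff test was not repeated. The 8 genes, the 56 related genes and the marker lists were chosen with earlier results of these data known.

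All 21853 identifiers were matched to GENCODE M21 symbols. Genes averaging 0.5 FPKM or more were fitted on log2(FPKM + 0.1), which understates the change of low genes, with limma 3.58.1 (lmFit and eBayes with a trend) in R 4.3.3 and Benjamini-Hochberg adjustment over all tested genes. OT minus OC was fitted within a tissue, and tissue contrasts over all 14 libraries. Calls used the cutoffs of the study (absolute log2 difference of at least 1, unadjusted p of at most 0.05), or for tissues an adjusted p under 0.05. The exact two-sided permutation test (2 times the smaller tail) was run 16 times, once for each of the 8 genes and tissue. The mouse label was read as pairing the ovary and uterus of a mouse. Their deviations from the group means correlated at 0.074 to 0.254, and ovaries and uteruses of different labels were not compared in this way. All 8 genes were named, together with the 3 most like each, the related genes that passed and some of the defining markers. Skeletal muscle markers were also summed, at 65.7 to 106 FPKM in OC uteruses and 72.7 to 145 FPKM in OT uteruses. Of the 3 tested in the uterus, 0 passed. The values of 1 related gene are not reported here. The ratios and Adipoq were singled out after values had been seen. Alternatives were other pseudocounts, filters, scalings and eBayes settings, blocks and leaving out each mouse. The fits were tested on simulated data. Tables and figures were made with numpy 2.4.6, scipy 1.17.1, pandas 2.3.3 and matplotlib 3.10.9 under Python 3.11.15.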

Additional observations from a re-analysis of the deposited data

Results flagged for a closer look

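Of 32 groups of 4 OT libraries examined for a library far from the others by Dixon's test at the 95% level, 7 stood out, and all 7 were the OT1 uterus. The test was run on FPKM and not on their logarithms. Its chance rate of about 1 in 20 groups holds for normally distributed values, which was not checked here. The 7 values also come from the same library, so they are not separate events. The OT1 uterus was highest for Adrb3 at 110 FPKM (next 21.6), Pnpla2 at 469 FPKM (next 116) and Lipe at 256 FPKM (next 62.9). It was also highest for Abhd5 at 39.1 FPKM (next 15) and G0s2 at 137 FPKM (next 40.7). The summed white adipocyte markers were 12827 FPKM in it (next 2676) and the summed brown adipocyte markers 725 FPKM (next 39.9).

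The difference between OT and OC mice was larger in the uterus than in the ovary for 5 of the 8 genes when the mouse was used as a block. The log2 difference of the differences was 2.01 for Adrb3, 1.34 for G0s2, 1.44 for Lipe, 1.16 for Mgll and 1.41 for Pnpla2, each past an unadjusted p of 0.05 by limma and none past the adjusted threshold. The same cutoffs were passed by 1.79% of all tested genes, and without the block 0 of the 8 genes passed.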

How the results depend on the processing

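The 5 calls among the 8 genes in the uterus and the 1 call in the ovary were kept in number under every other pseudocount, filter, scaling and eBayes setting tried, while the counts over all genes moved. Genes higher in OT ovaries numbered 53, and 35 with a filter of 1 FPKM, 99 with no filter and 16 with a pseudocount of 1. In the uterus 316 genes were higher, and 202 with a pseudocount of 1. Genes with a larger difference in the uterus numbered 186, and 298 with no filter and 105 with a pseudocount of 1. For that comparison 0 of the 8 genes passed, 1 (G0s2) with quantile normalization and 5 with the mouse as a block, and for OT uterus against OT ovary 1 passed, and 2 with that block. Leaving out each mouse in turn gave 36 to 104 genes and 0 to 1 of the 8 in the ovary, 243 to 416 genes and 4 to 5 of the 8 in the uterus, and 139 to 274 genes and 0 to 3 of the 8 for the difference between tissues, with 3 of the 8 without OT1 and 3 without OT2. It gave 1985 to 2847 genes and 0 of the 8 between OC tissues, and 1193 to 1386 genes and 0 to 1 of the 8 for OT tissues. The labels give no pairing of OC with OT mice by replicate number. Correlations of same-numbered deviations were 0.335, 0.022 and 0.103 for ovaries (mean of different numbers -0.052). For uteruses they were 0.076, 0.012 and -0.011 (mean of different numbers -0.007). With this replicate number as the block, and OT4 excluded, still 1 and 5 of the 8 passed, with 69 and 428 genes higher. The reversed log2 differences were all of values that had not passed. They were Adrb1 in the uterus (-0.05 with quantile normalization, -0.03 with the replicate block), the Adrb1 difference between tissues (-0.04 with quantile normalization) and Adrb1 between OC tissues (-0.02 with 75th percentile scaling). Leaving out each mouse gave for Adrb1 -0.13 to 0.17 in the ovary, -0.22 to 0.29 in the uterus, -0.28 to 0.42 for the difference between tissues, -0.35 to 0.35 between OC tissues and -0.11 to 0.35 between OT tissues. It gave for Pde3b -0.02 to 0.23 in the ovary and -0.09 to 0.07 between OC tissues, and for Abhd5 -0.06 to 0.44 between OT tissues. The cause was not tested. Over all other limma settings, 139 of 143 log2 differences of the 8 genes in the ovary and 137 of 143 in the uterus kept direction and side of the threshold. Adrb1 was not tested under the filter of 1 FPKM. Depth is unknown, and for Adrb1, at 0.434 to 1.2 FPKM, the precision of single values cannot be given.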
